A study of Mus musculus with 2 samples.

Results

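Transcripts of 10 receptors that raise or restrain T cell activation were followed across the lymphocytes of the mouse liver: Cd28, Icos, Ctla4, Pdcd1, Tnfrsf4, Lag3, Cd160, Cd200r1, Tigit and Havcr2. They were taken by symbol from the 28692 genes of the tables, and all 10 were found. The cells were CD45+ leukocytes sorted from the liver of 6-week-old female mice and profiled with the 10x Genomics droplet method (Single Cell 3′ kit, version 2). A vehicle library came from mice given no antibiotics. The antibiotic library came from mice whose drinking water held ampicillin and metronidazole at 1 mg/mL each and vancomycin and neomycin at 0.5 mg/mL each, for at least 1 week by the study's general methods. The study describes a longer course for its counts of liver leukocytes and states no length for the single-cell experiment itself. The comparison asks how receptor expression on hepatic lymphocytes differs when gut bacteria are depleted. Each treatment is 1 library, and how many mice each holds was not given in the sources used here, so no test between treatments was possible and every interval below covers counting error only.

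T cells need a second signal beside the antigen receptor to respond fully. CD28 and its relative ICOS give such a signal, as does OX40, the TNF receptor family member encoded by Tnfrsf4, while CTLA-4 competes with CD28 for the same ligands and PD-1 (Pdcd1) recruits phosphatases that blunt signalling. LAG-3 binds MHC class II, TIGIT competes for nectin-like ligands, TIM-3 is encoded by Havcr2, CD160 is a receptor of NK cells and resident lymphocytes, and CD200R1 restrains myeloid and lymphoid cells that meet CD200. Regulatory T cells are known to carry much CTLA-4, OX40 and ICOS, and plasmacytoid dendritic cells are known to express Lag3.

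Cells were barcodes with at least 1500 unique molecular identifiers (UMIs, 1 per captured transcript) and under 10% mitochondrial UMIs, which left 9002 vehicle and 7050 antibiotic cells with medians of 3515 and 3331 UMIs. The libraries held 41474311 and 29811401 UMIs in all, and 93 cell barcodes occurred in both, against 86.1 given by random draws of barcodes. Gates on the UMIs of other genes defined 6 classes. ILC1 (72 vehicle and 39 antibiotic cells) held Ncr1 and Cxcr6 but no CD3 chain, and NK cells (231 and 70) held Ncr1 without Cxcr6 and CD3. NKT-like cells (3587 and 4216) held Trac and Cxcr6, while CD8 T (353 and 161) and CD4 T cells (246 and 191) held Trac with Cd8b1 or Cd4 and no Cxcr6. B cells (3016 and 1340) held at least 2 Cd79a UMIs and no Cd3e. The gates overlapped in 145 vehicle and 58 antibiotic cells. Levels are given in CPM, a gene's UMIs scaled to all UMIs summed over the cells of a class in 1 library.

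The marker lists did not separate every class. The 7 T cell markers summed to between 4764 and 6655 CPM in the NKT-like, CD8 T and CD4 T classes and to between 364 and 847 CPM in ILC1, NK and B cells, an order that the gates on Trac and the CD3 chains partly fixed. The 5 NKT markers, which include the gate gene Cxcr6, summed to 1933 CPM (vehicle) and 2084 CPM (antibiotic) in the NKT-like class and to 2184 and 2396 CPM in ILC1. The 5 ILC1 markers, also with Cxcr6, summed to 1253 and 1138 CPM in NKT-like cells and to 1022 and 1302 CPM in ILC1. All 5 NKT markers were found in the NKT-like class, yet Trav11, the invariant NKT receptor segment, was seen in 8.84% and 12.9% of its cells, so the class is named by its gate of Trac and Cxcr6. A cell without a Trav11 UMI can still be an invariant NKT cell, so these shares do not estimate how many were. The paper, by T cell receptor sequencing, counted most hepatic NKT cells as invariant. An upper estimate of the share of B cell UMIs from free RNA in the droplets was 9.50% in the vehicle and 8.84% in the antibiotic library, and the level it would give is set beside the B cell values below.

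The genes of 4 receptors of the CD28 family lie on chromosome 1. In the GRCm38 build, Cd28 (chr1:60716800-60773359, + strand), Ctla4 (chr1:60887000-60915832, +) and Icos (chr1:60977927-61000320, +) follow each other within 283.5 kb, and Pdcd1 lies apart (chr1:94038305-94052553, -). The others are Tnfrsf4 (chr4:156013843-156016612, +), Lag3 (chr6:124904361-124911705, -), Cd160 (chr3:96798763-96829351, -), Cd200r1 (chr16:44765736-44794978, +), Tigit (chr16:43648867-43664146, -) and Havcr2 (chr11:46454935-46481255, +). Pdcd1, Lag3, Ctla4 and Tnfrsf4 were the members lower in the antibiotic CD4 T class, described below, and RefSeq promoter sequence (GRCm38.p6) was found for 3 of these 4. The 250 bases before each RefSeq start site, which for Ctla4 lies inside the annotated gene span above, are shown to give the sequence context of these 3 genes. Capitals mark matches, on either strand, to the letters TGGAAA (the NFAT core GGAAA with a T before it). The letters TGANTCA (AP-1) and TGTTTAC (forkhead) were searched as well, and no window held more than 1 match.
Pdcd1 (chr1:94052554-94052803, -): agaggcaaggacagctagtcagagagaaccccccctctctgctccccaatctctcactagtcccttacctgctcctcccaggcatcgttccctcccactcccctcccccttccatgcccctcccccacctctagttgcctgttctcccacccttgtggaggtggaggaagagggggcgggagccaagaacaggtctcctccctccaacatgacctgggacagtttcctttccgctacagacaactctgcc
Ctla4 (chr1:60908775-60909024, +): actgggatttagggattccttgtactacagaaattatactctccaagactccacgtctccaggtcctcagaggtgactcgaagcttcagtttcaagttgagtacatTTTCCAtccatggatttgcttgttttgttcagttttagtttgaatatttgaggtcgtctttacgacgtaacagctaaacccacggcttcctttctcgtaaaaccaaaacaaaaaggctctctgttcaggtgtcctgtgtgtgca
Tnfrsf4 (chr4:156013445-156013694, +): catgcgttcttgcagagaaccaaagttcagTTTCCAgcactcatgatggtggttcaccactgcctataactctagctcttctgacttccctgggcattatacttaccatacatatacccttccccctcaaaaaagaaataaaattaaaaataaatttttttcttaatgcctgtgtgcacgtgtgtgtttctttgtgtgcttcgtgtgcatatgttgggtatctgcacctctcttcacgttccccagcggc
The Ctla4 and Tnfrsf4 windows each held 1 match to TGGAAA, and 18.6% of all 32851 promoters held at least 1. The Pdcd1 window held none of the 3 strings searched. The shorter GGAAA was not searched, and TTTCC, its reverse complement, occurs in the Pdcd1 window. TGANTCA occurred in 6.75% and TGTTTAC in 3.17% of all promoters. The 3 sequences differed in base composition, with 60.4% G or C for Pdcd1, 42.4% for Ctla4 and 42.8% for Tnfrsf4.

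**Figure D1:**
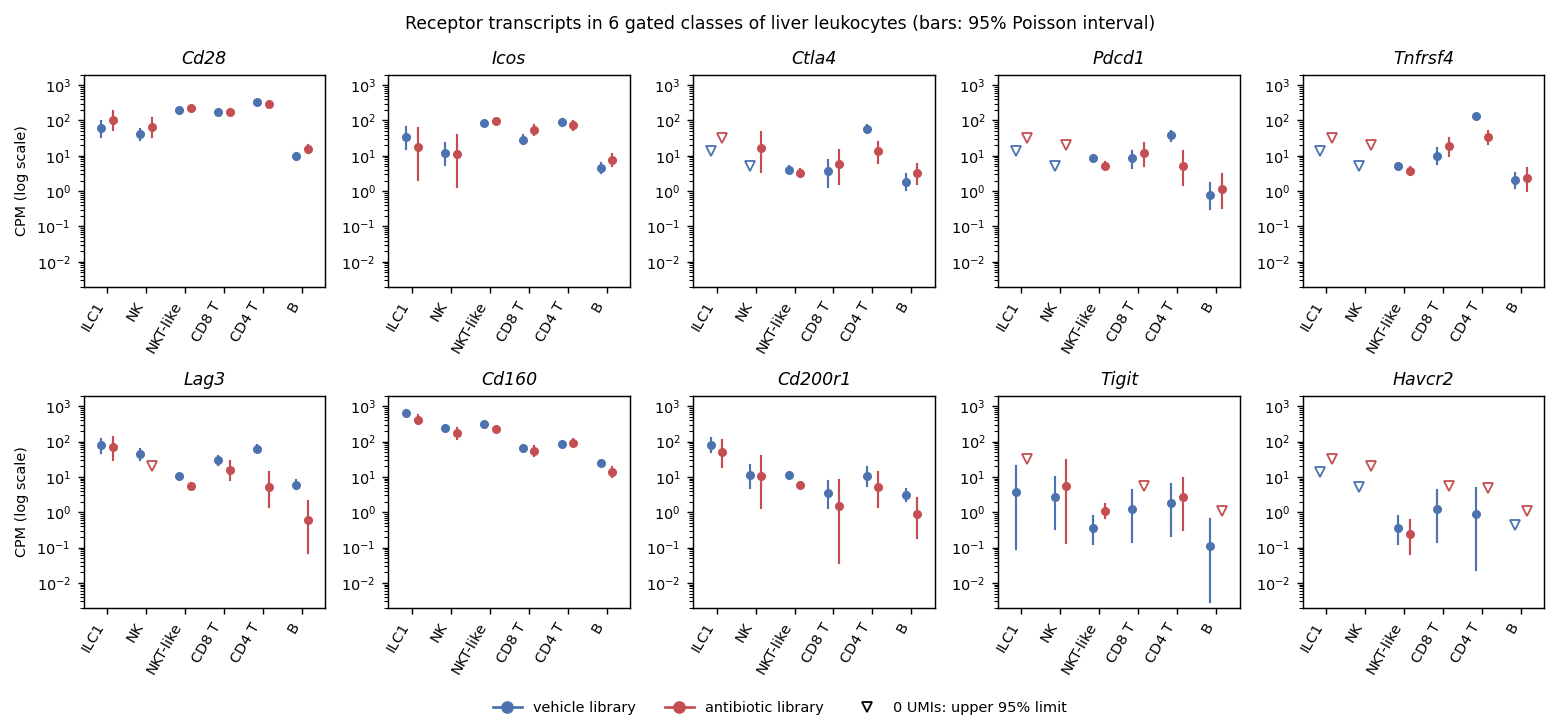
Level of each receptor (CPM, log scale) in the 6 gated classes of the vehicle (blue) and antibiotic (red) library. Points are sums over all cells of a class, bars are 95% Poisson intervals, and open triangles mark the upper limit where no UMI was found; Cd28 was highest in CD4 T cells (339 and 297 CPM) and Cd160 in ILC1 (665 and 417 CPM).

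Cd28 was found in T cells of every class. Its level was 339 CPM in vehicle CD4 T cells (95% interval 306 to 375) and 297 CPM in antibiotic ones (260 to 339), 203 and 223 CPM in the NKT-like class, and 180 and 171 CPM in CD8 T cells. CD4 T cells stood above NKT-like cells in both libraries by more than the counting interval of the ratio, and NKT-like above CD8 T cells. ILC1 (59.4 and 104 CPM) and NK cells (41.3 and 65.7 CPM) came next and were not apart from each other in either library, nor antibiotic ILC1 from CD8 T cells, and B cells were lowest at 9.73 and 15.7 CPM. After thinning every cell to 1500 UMIs, 27.3% of vehicle and 28.2% of antibiotic NKT-like cells held a Cd28 UMI, against 0.928% and 1.19% of B cells (57.5% and 56.4% against 2.06% and 2.46% at full depth). Median depth was 4250 and 3647 UMIs in NKT-like cells and 2527 and 2149 UMIs in B cells.

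Icos had its highest levels in CD4 T and NKT-like cells. It was at 88.8 and 73.0 CPM in vehicle and antibiotic CD4 T cells and at 86.3 and 97.7 CPM in the NKT-like class. These 2 classes were not apart in the vehicle library, while in the antibiotic library the NKT-like class was higher. CD8 T cells had 28.8 and 54.2 CPM, ILC1 33.4 and 17.4 CPM, NK cells 12.4 and 10.9 CPM and B cells 4.46 and 7.71 CPM. NKT-like cells held 81.0% of all Icos UMIs of the vehicle cells and 84.1% of those of the antibiotic cells.

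Ctla4 and Tnfrsf4 had their highest vehicle levels in CD4 T cells. Ctla4 was at 57.4 CPM in vehicle CD4 T cells and at 13.3 CPM in antibiotic ones, against 4.07 and 3.36 CPM in the NKT-like class and 3.61 and 5.86 CPM in CD8 T cells. ILC1 held no Ctla4 UMI, and NK cells held none in the vehicle and 3 in the antibiotic library (16.4 CPM), so that no neighbouring classes were apart in the antibiotic library. Tnfrsf4 was at 130 CPM (145 UMIs) in vehicle and 33.2 CPM (25 UMIs) in antibiotic CD4 T cells, at 10.2 and 19.0 CPM in CD8 T cells and at 5.18 and 3.77 CPM in the NKT-like class. Neither ILC1 nor NK cells held a Tnfrsf4 UMI in either library, which allows up to 11.1 and 26.0 CPM in ILC1 and up to 4.13 and 16.4 CPM in NK cells. B cells had 1.83 and 3.26 CPM of Ctla4 and 2.06 and 2.37 CPM of Tnfrsf4.

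Pdcd1 was sparse. It was at 37.7 CPM in vehicle CD4 T cells (42 UMIs in 19 cells) and at 5.31 CPM in antibiotic ones (4 UMIs in 3 cells). The NKT-like class had 8.72 and 5.31 CPM, and CD8 T cells 8.41 and 11.7 CPM, where the antibiotic value rests on 8 UMIs in 2 cells. No Pdcd1 UMI was found in ILC1 or NK cells of either library. The NKT-like class, the largest by cells, held 59.1% of the Pdcd1 UMIs of the vehicle cells and 71.4% of those of the antibiotic cells, although 1.23% and 0.664% of its thinned cells had a UMI (3.43% and 1.68% at full depth), against 0.0995% and 0.149% of B cells (0.199% and 0.299%).

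Lag3 followed another order. In the vehicle library ILC1 had 78.0 CPM (21 UMIs), CD4 T cells 63.7 CPM (71 UMIs), NK cells 44.1 CPM (32 UMIs) and CD8 T cells 29.4 CPM (49 UMIs), and no neighbours in that order were apart. NKT-like cells had 10.7 CPM and B cells 6.07 CPM. In the antibiotic library ILC1 had 69.4 CPM (8 UMIs), above CD8 T cells at 16.1 CPM, NKT-like cells at 5.54 CPM and CD4 T cells at 5.31 CPM. Much Lag3 lay in cells of none of the 6 classes, with 59.4% of the UMIs of the vehicle cells and 45.8% of those of the antibiotic cells. Cells with at least 2 UMIs of Siglech, a surface lectin of plasmacytoid dendritic cells, made up 2.06% of the vehicle cells and held 41.0% of their Lag3 UMIs (383 of 934). In the antibiotic library they were 0.482% of the cells and held 21.5% (46 of 214). Within these cells Lag3 was at 316 CPM in the vehicle and 215 CPM in the antibiotic library.

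Cd160 was a transcript of ILC1, NKT-like and NK cells. Vehicle and antibiotic levels were 665 and 417 CPM in ILC1, 317 and 228 CPM in the NKT-like class and 245 and 170 CPM in NK cells. ILC1 stood above the NKT-like class in both libraries, and the NKT-like class stood above NK cells in the vehicle library but was not apart from them in the antibiotic library. CD4 T cells had 86.1 and 94.3 CPM and CD8 T cells 66.1 and 54.2 CPM. A UMI was found in 65.3% of vehicle ILC1 (48.6% after thinning), as in 61.8% of vehicle NKT-like cells (34.5% after thinning). B cells were at 25.0 and 13.9 CPM, near the 20.3 and 17.5 CPM that free RNA at the estimated share would give.

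Cd200r1 was highest in ILC1 at 81.7 CPM (22 UMIs) and 52.1 CPM (6 UMIs). NKT-like cells (11.7 and 6.08 CPM), NK cells (11.0 and 10.9 CPM) and CD4 T cells (10.8 and 5.31 CPM) were not apart from each other in either library. Vehicle ILC1 stood above the vehicle NKT-like class, and no neighbouring classes were apart in antibiotic cells. CD8 T cells had 3.61 and 1.46 CPM and B cells 3.09 and 0.889 CPM.

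Tigit and Havcr2 were at the limit of detection. All vehicle cells held 22 Tigit UMIs and all antibiotic cells 27, of which 6 and 19 lay in NKT-like cells (0.349 and 1.12 CPM). Havcr2 was found as 38 and 12 UMIs, and the 6 classes held few of them: 6 and 4 UMIs in NKT-like cells, 2 and 0 in CD8 T cells, 1 and 0 in CD4 T cells and none in ILC1, NK and B cells. Cells of none of the classes held 29 and 8. None of the 6 classes reached 30 Tigit or Havcr2 UMIs over both libraries, the minimum set for counting a ratio. Below that minimum, the Tigit ratio in NKT-like cells was 3.21 (1.23 to 9.83).

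**Figure D2:**
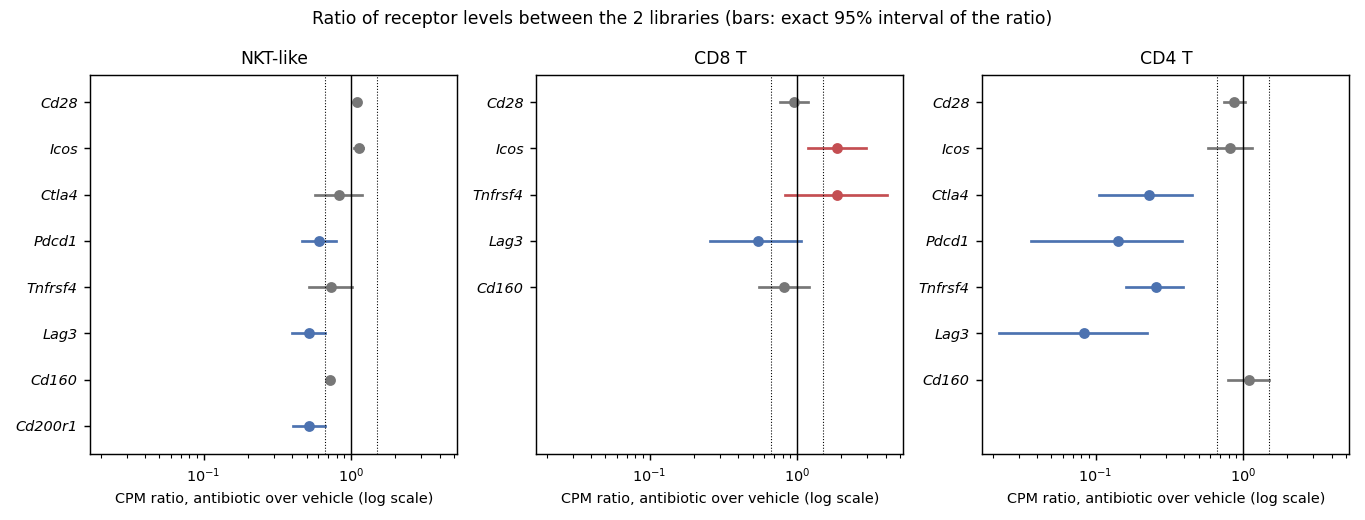
Ratio of CPM, antibiotic over vehicle (log scale), for every receptor with at least 30 UMIs over both libraries in the NKT-like, CD8 T and CD4 T classes. Points are ratios, bars exact 95% intervals of counting error, dotted lines 1.5-fold in either direction, and colours mark ratios at least 1.5-fold lower (blue) or higher (red); 4 receptors were lower in CD4 T cells and 3 in NKT-like cells, and 2 were higher and 1 lower in CD8 T cells.

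CD4 T cells of the antibiotic library had less of several receptors. Of its 7 receptors with at least 30 UMIs, 4 were at least 1.5-fold lower in the antibiotic library and none was higher, against 13.2% lower and 7.73% higher among the 5499 genes of the class with as many UMIs. Lag3 was at 63.7 CPM in the vehicle and 5.31 CPM in the antibiotic library (ratio 0.0834, 95% interval 0.0221 to 0.223). Pdcd1 was at 37.7 and 5.31 CPM (ratio 0.141, 0.0367 to 0.389), Ctla4 at 57.4 and 13.3 CPM (0.231, 0.106 to 0.454) and Tnfrsf4 at 130 and 33.2 CPM (0.255, 0.160 to 0.392). Cd28, Icos and Cd160 had ratios of 0.877 (0.740 to 1.04), 0.822 (0.580 to 1.15) and 1.09 (0.794 to 1.504). The median log2 ratio was -1.95 over the 7 receptors and -0.04 over all 5499 genes.

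These differences lay in small groups of cells, and not in the same ones. Foxp3, the lineage factor of regulatory T cells, was found in 15 of 246 vehicle and 3 of 191 antibiotic CD4 T cells. The 15 vehicle cells held 48 of the 64 Ctla4 UMIs and 113 of the 145 Tnfrsf4 UMIs, with 75 Tnfrsf4 UMIs in 1 cell. Ctla4 was at 436 CPM in the Foxp3 cells and 15.9 CPM in the rest of the vehicle class, a ratio of 27.4 (15.3 to 51.7), and Tnfrsf4 was 32.2 times higher there (21.6 to 49.4), or 11.99 times (7.30 to 19.8) without the cell of 75 UMIs. Icos was 2.61 times higher in the vehicle Foxp3 cells (1.55 to 4.24), and Cd28 was level with the rest (ratio 0.991, 0.686 to 1.39). Leaving out the Foxp3 cells, an alternative chosen after seeing the data, brought the antibiotic over vehicle ratio of Tnfrsf4 to 0.806 and that of Ctla4 to 0.509. Without the cell with the most UMIs in each library, the Tnfrsf4 ratio was 0.381.

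Lag3 lay in other cells. Of its 71 vehicle UMIs, 43 were in 14 cells with at least 2 Siglech UMIs, where Lag3 reached 442 CPM, and 10 were in Foxp3 cells. The antibiotic class had 1 such Siglech cell, with no Lag3 UMI. The 4 plasmacytoid dendritic cell markers summed to 968 CPM in the vehicle and 179 CPM in the antibiotic CD4 T class, with none at 0. Without the cells of Siglech or Foxp3, Lag3 was at 19.8 and 5.44 CPM (18 and 4 UMIs, ratio 0.274, 0.0675 to 0.832).

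Pdcd1 was in neither group. In the vehicle CD4 T class 41 of its 42 UMIs were in cells without Foxp3 and none in the Siglech cells. Foxp3 UMIs were sparse, so cells without one can still include regulatory T cells. In the cells without Foxp3 and Siglech, Pdcd1 was at 45.2 CPM in the vehicle library (41 UMIs in 18 of 217 cells) and at 4.08 CPM in the antibiotic library (3 UMIs in 2 of 187 cells), a ratio of 0.0903 (0.0179 to 0.283). The highest vehicle cell held 11 of these UMIs, and without the highest cell of each library the ratio over the class was 0.0955. Other markers moved with it. Klrb1c, the NK1.1 gene, was higher in the antibiotic cells of the same subset (ratio 3.54, 2.53 to 5.05). Of the regulatory T cell markers, Ikzf2 was lower in them (0.541, 0.389 to 0.744) and Il2ra was not apart (4.32, 0.822 to 42.6). Over the whole CD4 T class the NKT markers summed to 182 CPM in the vehicle and 430 CPM in the antibiotic library. The 5 regulatory T cell markers, which include Foxp3, summed to 424 and 206 CPM and the 8 myeloid markers to 558 and 199 CPM. The 3 cycling markers summed to 121 and 25.2 CPM and the 2 CD8 T markers to 82.5 and 10.6 CPM. The part of all these markers in the ratios of this class was not tested.

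**Figure D3:**
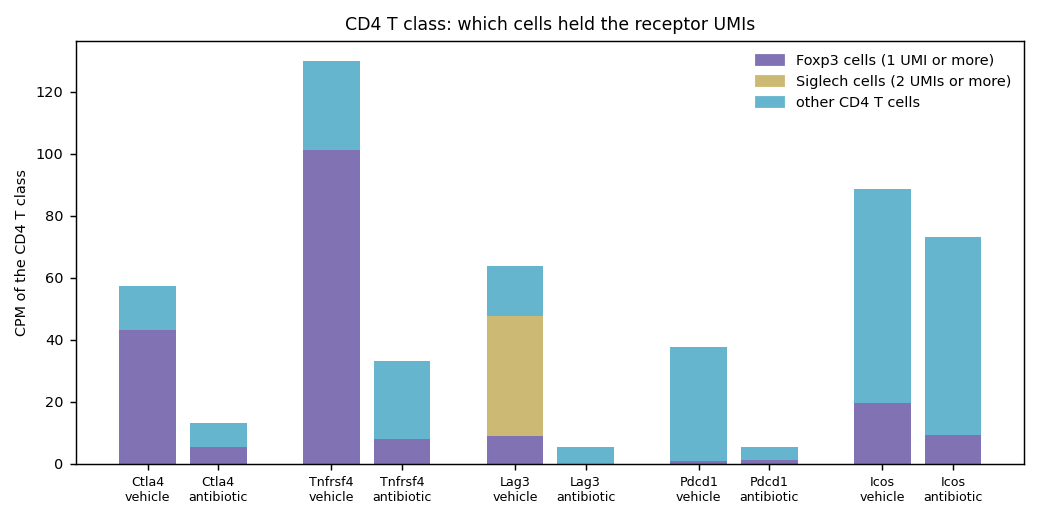
Level of 5 receptors in the CD4 T class of each library (CPM, bar height), split by the cells that held the UMIs: Foxp3 cells (at least 1 UMI), Siglech cells (at least 2 UMIs) and the rest. Most vehicle Ctla4 (48 of 64 UMIs) and Tnfrsf4 (113 of 145) came from Foxp3 cells, most vehicle Lag3 (43 of 71) from Siglech cells, and nearly all vehicle Pdcd1 from the remaining cells.

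Over all classes, 47 vehicle and 23 antibiotic cells held both Trac and Foxp3. In them Ctla4 was at 199 and 110 CPM (ratio 0.552, 0.261 to 1.06), Tnfrsf4 at 509 and 190 CPM (0.374, 0.219 to 0.604), Icos at 150 and 280 CPM (1.87, 1.12 to 3.07) and Cd28 at 253 and 310 CPM (1.23, 0.781 to 1.89). The Tnfrsf4 value rests on 153 vehicle and 19 antibiotic UMIs, of which 75 and 4 lay in 1 cell each, and without those cells the ratio was 0.586 with an interval that spans 1 (0.313 to 1.03). Icos was higher in the antibiotic Foxp3 cells on 45 and 28 UMIs, and without the highest cell of each library its ratio was 1.88 (1.08 to 3.21). These values without the highest cell were added after seeing the data.

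In the NKT-like class 8 receptors had enough UMIs. Of these 3 were at least 1.5-fold lower in the antibiotic library and none was higher, against 9.71% lower and 5.54% higher of 10852 genes. Lag3 was at 10.7 CPM in the vehicle and 5.54 CPM in the antibiotic library (ratio 0.518, 0.400 to 0.668), Cd200r1 at 11.7 and 6.08 CPM (0.520, 0.406 to 0.662) and Pdcd1 at 8.72 and 5.31 CPM (0.609, 0.463 to 0.796). The abundant receptors differed by less. Cd160 was at 317 and 228 CPM (0.719, 0.690 to 0.750), Cd28 at 203 and 223 CPM (1.10, 1.05 to 1.15) and Icos at 86.3 and 97.7 CPM (1.13, 1.06 to 1.22), intervals that leave out 1 for counting error alone. Tnfrsf4 (0.729, 0.521 to 1.02) and Ctla4 (0.826, 0.572 to 1.19) were not apart, although Ctla4 was at 1.49 after thinning and Tnfrsf4 at 0.622 without cells of at least 2 Cd79a UMIs. The median log2 ratio was -0.46 over the 8 receptors and -0.02 over all genes. When libraries were scaled without ribosomal, mitochondrial and hemoglobin genes, which moved the median of all genes in this class by 0.15 on the log2 scale, the Pdcd1 ratio was 0.676 and only Lag3 and Cd200r1 stayed past 1.5-fold.

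The NKT-like cells were then split by the coreceptor transcripts. Cells with neither Cd4 nor Cd8b1 made up 73.5% of the vehicle and 83.4% of the antibiotic class, and the 3 receptors were lower in the antibiotic ones. With 1 library a treatment, a difference between subsets in these ratios was not tested. Pdcd1 went from 8.46 to 3.86 CPM (ratio 0.457, 0.321 to 0.642), Lag3 from 7.71 to 3.21 CPM (0.416, 0.284 to 0.601) and Cd200r1 from 12.7 to 5.68 CPM (0.448, 0.337 to 0.592). In the Cd4 cells (698 and 555), Pdcd1 was at 11.3 and 11.1 CPM (0.980, 0.585 to 1.62) and Lag3 at 10.8 and 8.30 CPM (0.772, 0.432 to 1.34). In the Cd8b1 cells (220 and 131), Lag3 was higher in the antibiotic library, at 20.6 and 46.4 CPM (2.25, 1.27 to 4.03), with its 28 antibiotic UMIs in 7 cells. Pdcd1 (3.62, 1.09 to 13.8) and Cd200r1 (2.82, 0.769 to 11.3) also had ratios above 1 in these cells, on wide intervals, of which that of Cd200r1 spans 1. Cd28 was at 130 and 212 CPM in them (1.63, 1.28 to 2.07). Cd160 was lower in the Cd4 cells (315 and 227 CPM) and in the cells with neither (331 and 230 CPM), while the Cd8b1 cells had 204 and 202 CPM (0.994, 0.793 to 1.24).

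Within a library the Cd4 cells differed from those with neither coreceptor. Tnfrsf4 was 2.96 times higher in the vehicle Cd4 cells (1.78 to 4.93) and 5.43 times higher in the antibiotic ones (3.16 to 9.32). Pdcd1 was 1.34 times (0.909 to 1.93) and 2.87 times higher (1.75 to 4.61). Ctla4 was 3.24 times higher in the vehicle library (1.79 to 5.88) and 1.77 times in the antibiotic library (0.893 to 3.29). Cd28, Icos and Cd160 lay within 1.1-fold of the cells with neither in both libraries.

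Cells with the Trav11 segment numbered 317 and 545. Their Lag3 was at 10.48 CPM (16 UMIs) and 0.883 CPM (2 UMIs), and Pdcd1 at 9.17 and 3.09 CPM (ratio 0.337, 0.115 to 0.893). In the same cells Siglech had a ratio of 0 (0 to 0.0443) and Bst2, another plasmacytoid dendritic marker, 0.385 (0.325 to 0.455). The part of such cells in the Lag3 difference was not tested. Cd160 went from 356 to 251 CPM (0.704, 0.625 to 0.794), while Cd28 (236 and 238 CPM, ratio 1.01) and Icos (115 and 103 CPM, 0.897, 0.734 to 1.10) were not apart. Markers of other cell types also differed in the whole NKT-like class, and their part in the ratios was not tested. The 7 B cell markers summed to 421 and 195 CPM, the 8 myeloid markers to 586 and 244 CPM and the 4 plasmacytoid dendritic markers to 265 and 170 CPM. Scrublet marked 7.11% of the vehicle and 2.56% of the antibiotic NKT-like cells as doublets. Without them the same 3 receptors were past 1.5-fold, with ratios of 0.574 for Pdcd1, 0.638 for Lag3 and 0.518 for Cd200r1.

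**Figure D4:**
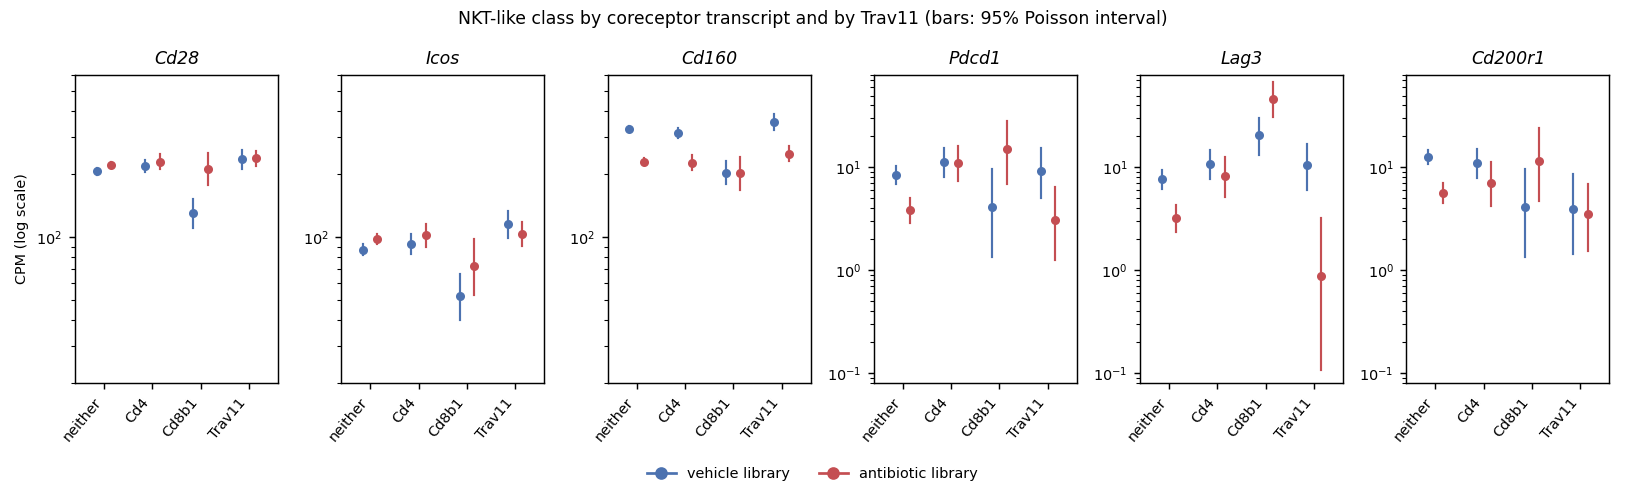
Level of 6 receptors (CPM, log scale) in NKT-like cells with neither coreceptor transcript, with Cd4, with Cd8b1, and with Trav11, which overlap the other groups, in the vehicle (blue) and antibiotic (red) library. Bars are 95% Poisson intervals. Pdcd1, Lag3 and Cd200r1 were lower in the antibiotic cells with neither coreceptor. In the Cd8b1 cells Lag3 was higher (20.6 and 46.4 CPM), and Pdcd1 and Cd200r1 also had ratios above 1, with wide intervals.

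In CD8 T cells 5 receptors had at least 30 UMIs. Icos and Tnfrsf4 were at least 1.5-fold higher and Lag3 at least 1.5-fold lower in the antibiotic library, against 7.61% higher and 11.5% lower of 5769 genes. Icos was at 28.8 CPM (48 UMIs in 39 of 353 cells) in the vehicle and 54.2 CPM (37 UMIs in 27 of 161 cells) in the antibiotic library, a ratio of 1.88 (1.19 to 2.95). Tnfrsf4 was at 10.2 and 19.0 CPM on 17 and 13 UMIs, a ratio of 1.86 whose interval spans 1 (0.833 to 4.07). Cd28 (180 and 171 CPM, ratio 0.954) and Cd160 (66.1 and 54.2 CPM, ratio 0.820) were not apart at full depth. After thinning to 1500 UMIs the Cd28 ratio was 0.515, with a Cd28 UMI in 22.9% of vehicle and 13.0% of antibiotic cells (48.2% and 43.5% at full depth). Without the Foxp3 cells the Tnfrsf4 ratio was 6.30, and the count of higher receptors was 1 because Tnfrsf4 then had fewer than 30 UMIs. The 3 plasma cell markers summed to 83.5 CPM in the vehicle and 2421 CPM in the antibiotic CD8 T class and the 7 NK markers to 257 and 119 CPM, and their part in these ratios was not tested.

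Lag3 in CD8 T cells was at 29.4 and 16.1 CPM, a ratio of 0.547 (0.257 to 1.07), and this rested on 10 vehicle cells with at least 2 Siglech UMIs. They held 24 of the 49 vehicle Lag3 UMIs, and no antibiotic CD8 T cell was of this kind. Without them Lag3 was at 15.7 and 16.1 CPM (1.03, 0.457 to 2.17). The plasmacytoid dendritic markers summed to 576 CPM in the vehicle and 192 CPM in the antibiotic CD8 T class, where Siglech was at 0.

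Splitting CD8 T cells by Ccl5, a chemokine of memory-like CD8 T cells, gave unequal levels of several receptors. Ccl5 was found in 231 of 353 vehicle and 100 of 161 antibiotic cells. All 14 vehicle and all 8 antibiotic Pdcd1 UMIs lay in Ccl5+ cells, as did 46 of 49 and all 11 Lag3 UMIs, 105 of 110 and 34 of 37 Cd160 UMIs, and 16 of 17 and 10 of 13 Tnfrsf4 UMIs. Lag3 was 6.78 times (2.18 to 34.1) and Cd160 9.29 times (3.86 to 29.2) higher in vehicle Ccl5+ than in Ccl5- cells. Cells with at least 2 Siglech UMIs held 24 of the 49 vehicle Lag3 UMIs, and the Lag3 contrast by Ccl5 was not repeated without them. For Tnfrsf4 the same ratio was 7.08 (1.10 to 297) in the vehicle and 1.56 (0.402 to 8.82) in the antibiotic library. For Pdcd1 its lower limit was 1.47 in the vehicle and 0.799 in the antibiotic library, so the 2 antibiotic values were not apart. Icos and Cd28 were present in both. Vehicle Icos was at 29.5 CPM in Ccl5+ and 27.4 CPM in Ccl5- cells, antibiotic Icos at 51.6 and 59.7 CPM, so that the higher antibiotic level occurred on both sides of the split (ratios 1.75, 0.993 to 3.04, and 2.18, 0.942 to 4.99). Vehicle Cd28 was at 192 and 151 CPM and antibiotic Cd28 at 174 and 165 CPM.

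**Figure D5:**
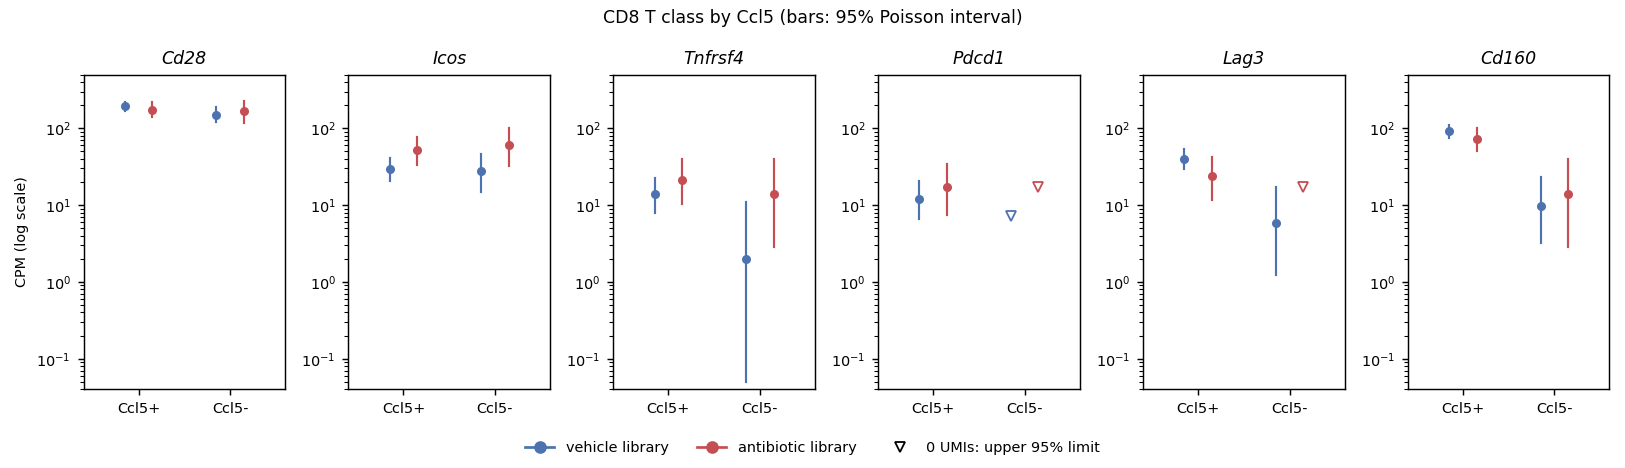
Level of 6 receptors (CPM, log scale) in CD8 T cells with (Ccl5+) and without (Ccl5-) a Ccl5 UMI, in the vehicle (blue) and antibiotic (red) library. Bars are 95% Poisson intervals and open triangles the upper limit where no UMI was found. Pdcd1, Lag3 and Cd160 lay almost wholly in Ccl5+ cells, and Cd28 and Icos in both. Cells with at least 2 Siglech UMIs held 24 of the 49 vehicle Lag3 UMIs.

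ILC1 and NK cells gave few ratios. Cd160 had 0.627 (0.446 to 0.866) of its vehicle level in antibiotic ILC1 and 0.692 (0.457 to 1.02) in antibiotic NK cells, and the ILC1 ratio was 0.733 after thinning. Lag3 in NK cells went from 32 UMIs to 0 (ratio 0, 0 to 0.485). Its vehicle value was 2.68 times the floor of 3 counts in the antibiotic library (16.4 CPM), without the counting error of the vehicle value. Cd28 in NK cells was at 41.3 and 65.7 CPM (1.59, 0.741 to 3.20), and at a ratio of 1.18 after thinning. The antibiotic ILC1 and NK classes held 39 and 70 cells, and markers of other cells also differed between the libraries. The plasmacytoid dendritic markers summed to 314 and 49.3 CPM in NK cells and to 331 and 69.4 CPM in ILC1, with Siglech, Ccr9 and Cox6a2 at 0 in both antibiotic classes. The neutrophil markers were at 656 and 5.47 CPM in NK cells, and the NK markers at 9733 and 5269 CPM in ILC1. Their part in these ratios was not tested.

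In B cells 5 receptors had 30 UMIs, with Cd28 and Icos at least 1.5-fold higher and Cd160, Lag3 and Cd200r1 at least 1.5-fold lower, against 7.56% higher and 5.1% lower of 9484 genes. Cd28 was at 9.73 and 15.7 CPM, Icos at 4.46 and 7.71 CPM, Cd160 at 25.0 and 13.9 CPM, Lag3 at 6.07 and 0.593 CPM and Cd200r1 at 3.09 and 0.889 CPM. Free RNA at the estimated share would give 6.96 and 8.75 CPM of Cd28, 3.19 and 3.95 CPM of Icos, 2.36 and 0.711 CPM of Lag3 and 1.44 and 0.790 CPM of Cd200r1. In B cells of exactly 1 class the Cd28 and Icos ratios turned to 0.720 and 0.665. Without Scrublet doublets the Icos ratio was 1.22 and the Cd200r1 ratio 0.767, and after thinning the Cd200r1 ratio was 1.13, on 27 vehicle and 3 antibiotic UMIs at full depth. No direction was read from these levels.

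Other genes of the pathway were counted in the same way, from lists of genes. The lists are short, and their counts were not tested against the shares over all genes of a class. In NKT-like cells 9.71% of all genes were at least 1.5-fold lower and 5.54% higher. In NKT-like cells 3 of 13 other inhibitory receptors were at least 1.5-fold lower in the antibiotic library, namely Cd244 (the SLAM family receptor 2B4, 14.2 and 4.36 CPM), the collagen receptor Lair1 (7.09 and 3.42 CPM) and Ceacam1 (1.86 and 0.708 CPM), and Cd101 was higher (3.55 and 6.19 CPM). Klrc1, which encodes NKG2A, and Vsir, which encodes VISTA, were the most abundant, at 144 and 155 CPM and at 113 and 86.8 CPM. Of 10 other costimulatory receptors, 2 were lower, Cd7 (366 and 183 CPM) and Crtam (1.51 and 0.708 CPM). Cd2, which like Cd244 encodes a receptor of CD48 in the mouse, was at 350 and 338 CPM. Of 12 ligands, 4 were lower: Cd48 (341 and 187 CPM), the fibrinogen-like Fgl2 (197 and 118 CPM), Cd86 (3.90 and 1.71 CPM) and Tnfsf9 (3.08 and 1.89 CPM), while Hmgb1 was at 630 and 697 CPM. Of 14 regulators, Nr4a2 (1.63 and 0.649 CPM) and Eomes (3.31 and 1.36 CPM) were lower, with Tbx21 (95.02 and 84.6 CPM) and Maf (81.3 and 86.7 CPM) the most abundant. None of the 12 signalling partners was past 1.5-fold, and Lck (590 and 547 CPM) and Lat (420 and 432 CPM) led that list.

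In CD4 T cells 13.2% of all genes were at least 1.5-fold lower and 7.73% higher. The median log2 ratios of the 5 lists in this class lay between -0.23 and 0.08. Lair1 was lower (60.1 and 10.6 CPM) and Klrc1 higher (17.0 and 26.6 CPM) of 8 other inhibitory receptors, among which Slamf6 (204 and 231 CPM) and Vsir (161 and 116 CPM) were the most abundant. Of 7 costimulatory receptors Cd7 was lower (243 and 117 CPM) and Cd226, the activating partner of TIGIT, higher (37.7 and 65.1 CPM), with Cd2 (451 and 401 CPM) and Cd27 (262 and 284 CPM) on top. Cd48 (274 and 167 CPM) and Lgals3 (50.2 and 19.9 CPM) were lower of 6 ligands, and Hmgb1 was at 708 and 686 CPM. Of 9 regulators, 3 were lower: Ikzf2, the Helios gene (175 and 90.3 CPM), Foxp3 (29.6 and 9.29 CPM) and Batf (80.7 and 53.1 CPM), while Tcf7 was at 308 and 311 CPM. The 12 signalling partners held no gene past 1.5-fold, with Lck at 541 and 560 CPM and Lat at 427 and 532 CPM.

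Over all genes of the CD8 T class 7.61% were at least 1.5-fold higher and 11.5% lower. In CD8 T cells the TNF receptor family genes Tnfrsf18 (54.1 and 84.9 CPM) and Tnfrsf25 (11.4 and 20.5 CPM) were higher beside Tnfrsf4, and Tnfrsf9 (22.2 and 8.79 CPM) and Crtam (22.8 and 13.2 CPM) were lower, of 8 other costimulatory receptors led by Cd2 (402 and 403 CPM) and Cd7 (237 and 268 CPM). Of 8 other inhibitory receptors Nt5e was higher (16.8 and 33.7 CPM) and Lair1 lower (31.8 and 5.86 CPM), with Slamf6 at 153 and 218 CPM and Vsir at 136 and 149 CPM. Of 6 ligands Fgl2 (8.41 and 23.4 CPM) and Lgals3 (21.6 and 49.8 CPM) were higher and Cd200 (25.2 and 13.2 CPM) lower, with Hmgb1 at 542 and 600 CPM and Cd48 at 225 and 173 CPM. Eomes was lower of 7 regulators (27.0 and 14.6 CPM), led by Tcf7 (247 and 245 CPM) and Ikzf2 (52.3 and 76.2 CPM). Sh2d2a was higher of 12 signalling partners (46.9 and 74.7 CPM), led by Lck (557 and 584 CPM) and Lat (377 and 472 CPM). Lair1 was the gene of these lists that was past 1.5-fold, and lower, in all 3 T cell classes. It was also lower in NK cells, B cells and the cells of none of the classes, so the difference was not particular to T cells.

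Receptors were seldom seen together in a cell at 1500 UMIs. At least 1 of the 10 was found in 59.9% of vehicle and 56.0% of antibiotic NKT-like cells and at least 2 in 16.6% and 13.9%. In CD4 T cells the shares were 59.8% and 47.6% for at least 1, and 16.3% and 10.47% for at least 2. In CD8 T cells 33.1% and 26.7% held at least 1. All pairs found in at least 20 cells lay in the NKT-like class. Cd28 was in 30.1% of the vehicle Icos cells and in 27.0% of the cells without Icos, and in 29.5% and 28.0% in the antibiotic library (121 and 160 cells with both). It was in 25.8% of the vehicle Cd160 cells and 28.1% of the others, and in 24.7% and 29.5% in the antibiotic library (319 and 281 cells). Icos was in 10.52% of the vehicle Cd160 cells and 11.6% of the others, and in 12.4% and 13.0% in the antibiotic library. In the vehicle library Cd160 was in 47.7% of the 44 Pdcd1 cells and 34.3% of the others, and in 44.7% of the 47 Lag3 cells and 34.3% of the others. Cd200r1 was in 2.02% of the vehicle Cd160 cells and 1.66% of the others.

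The genes with the most similar pattern to each receptor over the 12 class sums (6 classes in 2 libraries, log2 of CPM plus 5, 4021 genes) were described by Pearson's r, with no test, since the sums share libraries, free RNA and depth. Cd28 was closest to Lat (0.983), Ramp1 (0.974) and Trbc2 (0.960), Icos to Trbc2 (0.946), Thy1 (0.938) and Camk4 (0.936), and Cd160 to Tnfrsf1a (0.981), Sytl2 (0.978) and Gimap4 (0.962). For the sparser receptors, the 3 closest genes were Cope, Wdr26 and Hivep3 for Cd200r1 (0.959 to 0.952), Nrp1, Cyb5a and Igfbp4 for Tnfrsf4 (0.934 to 0.870), Anxa5, Tmem33 and Hnrnpab for Lag3 (0.908 to 0.866), Ezh2, Adk and Nip7 for Ctla4 (0.884 to 0.794) and Kcnn4, Rpl36al and Cd5 for Pdcd1 (0.882 to 0.877). Tigit and Havcr2, with 36 and 13 UMIs over the 12 sums, were left out.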

How the data were processed

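CD45+ liver leukocytes of vehicle- and antibiotic-treated mice were profiled as 1 droplet library each. The authors ran bcl2fastq and Cell Ranger against mm10, per the labels' processing notes, and deposited raw UMI counts per gene and barcode. Versions were not given in the sources used here. Counts of cells with at least 1500 UMIs and under 10% mitochondrial UMIs were summed per class and library, without a doublet filter. Doublets (Scrublet in scanpy 1.11.5, assumed rate 6%, 4.44% and 2.00% marked) were left out in an alternative. Intervals are exact at 95% (Poisson, Clopper-Pearson) and cover counting error only, and a count of 0 allows 3 counts. A receptor was counted when its CPM ratio was at least 1.5-fold with at least 30 UMIs over both libraries. The text names all 10 receptors and, of each list, genes past 1.5-fold and the 2 most abundant. Members and lists were chosen with earlier results of these data known. Scripts were tested on simulated data. Python 3.11.15 and scipy 1.17.1 were used.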

Additional observations from a re-analysis of the deposited data

Results flagged for a closer look

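Tnfrsf4 was at least 1.5-fold higher in antibiotic CD8 T cells (ratio 1.86) and at least 1.5-fold lower in antibiotic CD4 T cells (ratio 0.255), a difference in direction between the 2 point values. The CD8 T interval spans 1 (0.833 to 4.07, on 17 and 13 UMIs), so no direction was established there. In the CD4 T class 75 of the 145 vehicle UMIs lay in 1 cell. With 1 library per treatment the difference between the classes was not tested. Without Foxp3 cells, the ratios were 6.30, on fewer than 30 UMIs, and 0.806.

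Cells in none of the 6 classes (1646 vehicle and 1092 antibiotic cells) belonged to none of the class comparisons. In them Icos was at 26.5 CPM in the vehicle and 57.1 CPM in the antibiotic library, a ratio of 2.16 (95% interval of counting error 1.76 to 2.65). Cd28 was at 107 and 189 CPM, a ratio of 1.77 (1.60 to 1.97). In the same cells the 7 T cell markers summed to 3406 and 4131 CPM, the 5 neutrophil markers to 5374 and 234 CPM and the 4 red cell and platelet markers to 6413 and 1036 CPM, and their part in the 2 ratios was not tested.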

How the results depend on the processing

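No paired analysis was possible because each treatment had 1 library. For the 29 receptor and class ratios, 17 alternatives gave 488 values, of which 462 moved by less than the counting interval, 21 by more, and 5, of ratios at least 1.5-fold apart, crossed 1. Another 4 values crossed 1 from ratios nearer to it: Ctla4 in NKT-like (1.49) and Cd160 in CD8 T cells (1.13) after thinning, Cd28 in CD8 T cells (1.0009) with cells weighted alike, and Cd160 in CD4 T cells (0.932) without Siglech or Foxp3 cells. Thinning to 1500 UMIs gave 1.13 for Cd200r1 in B cells. Cells in exactly 1 class gave 0.665 for Icos and 0.720 for Cd28 in B cells. Without Siglech cells Lag3 in CD8 T cells was 1.03, and without Siglech or Foxp3 cells 1.02. Of the receptors at least 1.5-fold apart (0 higher and 3 lower in NKT-like, 2 and 1 in CD8 T, 0 and 4 in CD4 T cells), the higher CD8 T count was 1 (Icos) after thinning, without Scrublet doublets, in cells of exactly 1 class, and without Foxp3 cells, Siglech or Foxp3 cells, Cd79a cells or the top cell. Tnfrsf4 then had ratios of 1.57, 1.78, 1.49, 6.30, 6.03, 1.58 and 2.19, in that order, so that all but the third were dropped for having fewer than 30 UMIs. The lower CD8 T count was 0 in cells of exactly 1 class and without Siglech (or Siglech or Foxp3) cells, and 2 with at least 1 UMI in each library. The lower CD4 T count was 1 after thinning (Tnfrsf4), 2 without Foxp3 cells (Pdcd1 and Lag3) and 1 without Siglech or Foxp3 cells (Pdcd1). In the last 2 settings Ctla4 had ratios of 0.509 and 0.463, and Lag3 had 0.274 without Siglech or Foxp3 cells. These were dropped for having fewer than 30 UMIs. Minima of 10 UMIs or of 1 UMI in each library put Tigit higher in NKT-like cells (count 1). At 2-fold the lower NKT-like count and both CD8 T counts were 0. The settings that left out Siglech, Foxp3, Cd79a or top cells were chosen after seeing the data. After thinning, fewer UMIs reached the minimum of 30. Scaling without ribosomal, mitochondrial and hemoglobin genes moved the median of all genes by 0.16 in ILC1 and 0.13 in CD4 T cells on the log2 scale, and median-ratio scaling moved it by -0.14 in NK cells.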

Other observations

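In the 177 vehicle and 34 antibiotic cells with myeloid or plasmacytoid dendritic marker genes, Lag3 was at 204 and 125 CPM (ratio 0.612, 0.375 to 0.953). Havcr2 was at 10.48 and 28.4 CPM there (10 and 5 UMIs), Cd200r1 at 29.3 and 56.8 CPM (28 and 10 UMIs) and Cd160 at 41.9 and 68.2 CPM (40 and 12 UMIs). Over all cells of a library, whatever their class, Lag3 was at 26.3 CPM in the vehicle and 8.39 CPM in the antibiotic library, Cd200r1 at 13.3 and 6.35 CPM, Icos at 51.5 and 77.3 CPM and Cd28 at 139 and 190 CPM. NKT-like cells were 39.8% of the vehicle and 59.8% of the antibiotic cells, so these totals carry the makeup of the libraries as well as levels within cells.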
